A study of Homo sapiens with 7 samples.

Results

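The NRF2 antioxidant genes are 10 genes of the oxidative stress response that were chosen by name, namely the regulators NFE2L2, KEAP1 and MAFG and the enzymes NQO1, GCLC, GCLM, GSR, TXNRD1, SRXN1 and PRDX1. All 10 were found among the 25702 gene IDs of the count table by symbol or NCBI gene ID, and all 10 were among the 10452 genes expressed highly enough to be tested. RNA was sequenced from 7 lines of K562, an established chronic myeloid leukemia cell line with erythroid features that carries the BCR::ABL1 fusion, with 1 library per line. The controls were a drug naive line and a line kept in the solvent DMSO. The DasR lines are K562 cells that were taken through rising concentrations of dasatinib, a tyrosine kinase inhibitor of BCR::ABL1, and were sampled at 10, 15 and 25 nM, called early stage, and at 50 and 200 nM, called late stage. The labels give the concentrations, while the stages were set by the study from the clustering of these same libraries. All 7 lines descend from K562, every DasR line came from stepwise escalation, and each line has a single library. Replicates are therefore the different lines of a group, whose spread takes in any effect of concentration. The paper describes the DasR samples as collected in sequence during the escalation of a resistant K562 line, so they are not independent of each other. The test treats them as independent, and its FDR values do not reach beyond this escalation.

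NRF2, the transcription factor encoded by NFE2L2, pairs with small MAF proteins such as MAFG and binds antioxidant response elements in front of its target genes. In unstressed cells KEAP1 holds NRF2 for degradation by a CUL3 ubiquitin ligase, and oxidants or electrophiles loosen that hold. The targets make glutathione, keep thioredoxin and peroxiredoxins reduced, detoxify quinones and supply NADPH. NRF2 activity is set largely by how long the protein lasts, so that the level of NFE2L2 RNA is not a measure of it, and only RNA was measured here.

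Total counts were between 20059656 in the 25 nM line and 27844799 in the 15 nM line. Values are given as CPM, which divides each count by the size of its library, and a gene was tested if it reached 10 CPM in at least 2 lines. Changes are log2 fold changes with their standard error (SE) from edgeR's quasi-likelihood test fitted to all 7 lines, and FDR is its p-value after Benjamini-Hochberg adjustment over the 10452 genes. A gene was called changed at the study's FDR of 0.005. Early and late stage lines were compared with the same 2 controls, so these comparisons are not independent of each other.

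In the early stage lines NFE2L2 and the quinone reductase NQO1 fell and PRDX1 rose, so 3 of the 10 genes changed against control. Across all genes tested, 18.0% were called in this comparison, 7.92% as higher and 10.1% as lower. In the late stage lines SRXN1 rose and no other of the 10 genes was called, against 7.98% of all genes, 3.42% as higher and 4.56% as lower. At an FDR of 0.05, 5 of the 10 genes passed in early stage lines, against 46.5% of all genes, and 4 in late stage lines, against 33.9%. The median log2 fold change of the 10 genes was -0.19 in early and 0.16 in late stage lines, while that of all genes was 0.00 and -0.00. The median in the early stage lines was 0.03 with the drug naive line left out and -0.31 with the DMSO line left out, and the median in the late stage lines was -0.00 without the DMSO line. In early stage lines 3 of the 10 log2 fold changes were above 0 and 7 below, and in late stage lines 6 and 4. Whether the 10 genes shifted together was not tested, and the plot of CPM by line shows several courses among them.

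**Figure D1:**
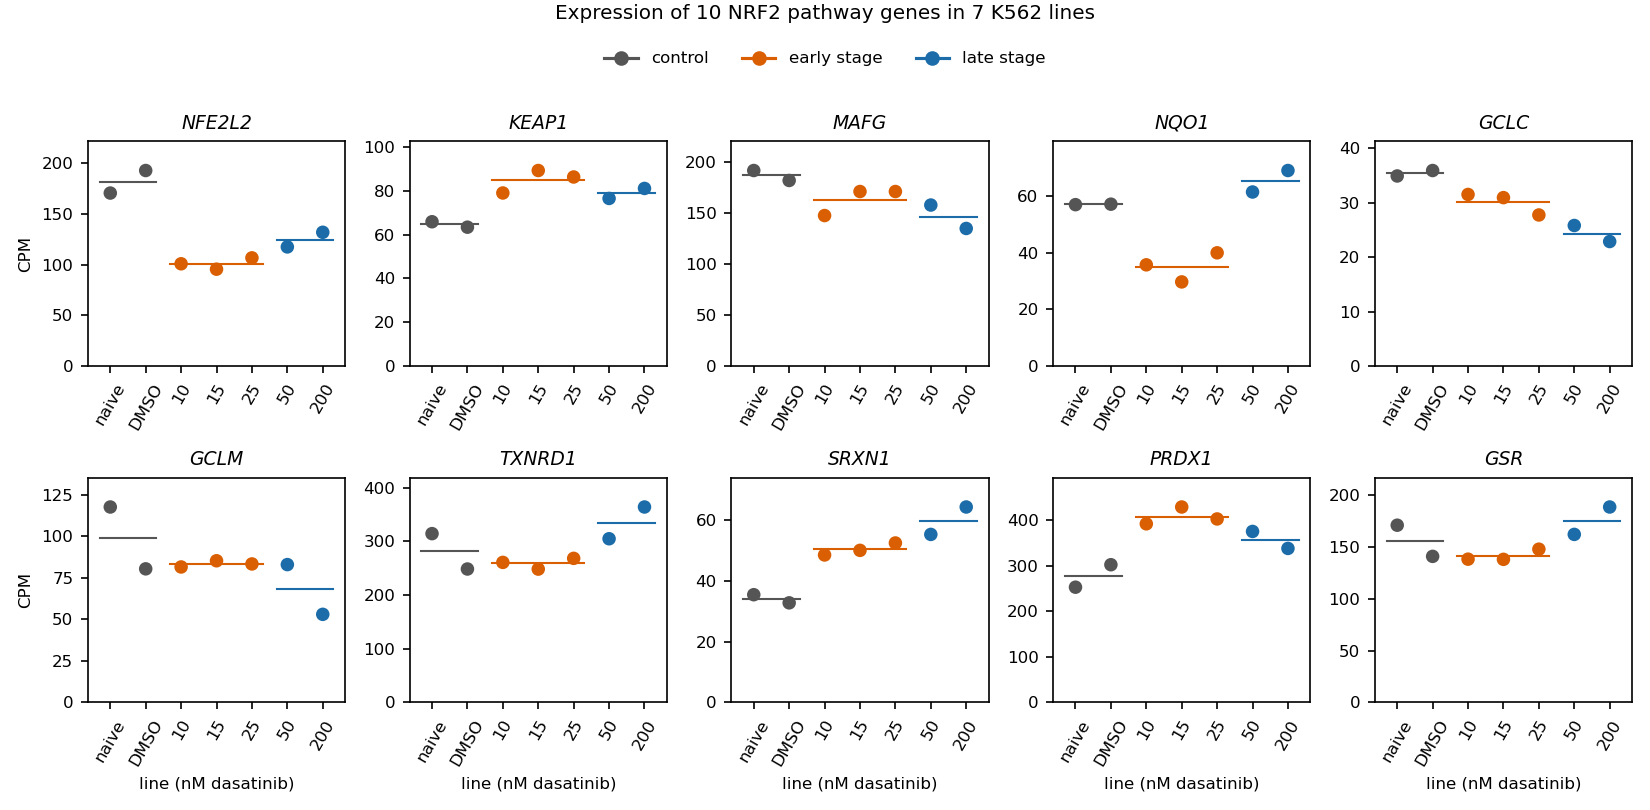
CPM of the 10 genes in each of the 7 K562 lines, with 1 point per line and a bar at the mean of each group (control, early stage, late stage). NFE2L2 is highest in the 2 controls, NQO1 is lowest in the early stage lines, SRXN1 is lowest in the 2 controls, and the ratio between the controls is farthest from 1 in GCLM.

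Among the regulators, NFE2L2 (NCBI gene 4780, chr2:178083395-178257484, minus strand of hg19) fell in the early stage lines and was lower in every DasR line than in either control. It stood at 171 CPM in the drug naive and 193 CPM in the DMSO line, at 101, 95.5 and 107 CPM in the 10, 15 and 25 nM lines, and at 117 and 132 CPM in the 50 and 200 nM lines. The controls were highest, and both late stage lines were above the early stage lines. The mean was 182 ± 15.7 CPM in control (SD, n = 2), 101 ± 5.60 CPM in early stage (SD, n = 3) and 125 ± 10.2 CPM in late stage lines (SD, n = 2). The fall in early stage lines was 1.82-fold, with a log2 fold change of -0.86 (SE 0.09) and an FDR of 0.000693 by edgeR's quasi-likelihood test. With the drug naive line left out this FDR was 0.00632, and with the DMSO line left out it was 0.00591, both above 0.005, so that the call was lost. In late stage lines the log2 fold change was -0.56 (SE 0.10) and edgeR's FDR of 0.00725 missed the threshold. In the annotation used for positions, exons of NFE2L2 cover 14975 bases and overlap those of HNRNPA3 on the opposite strand over 3509 bases. A further 2037 bases are shared on the same strand with the noncoding gene ENSG00000213963. The authors' gene length for NFE2L2 is 3340 bases, so the counts rest on fewer exon bases than this annotation holds. How many of the shared bases were counted was not determined, and the strand setting of the counting is not given in the sources used here.

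KEAP1 (gene 9817, chr19:10596801-10614234, minus strand), the adaptor that marks NRF2 for degradation, had values opposite in direction to those of NFE2L2, and no comparison of it was called. Its CPM was 65.9 and 63.4 in the drug naive and DMSO lines, 79.1, 89.4 and 86.4 in the 10, 15 and 25 nM lines, and 76.6 and 81.2 in the 50 and 200 nM lines. All 5 DasR lines lay above both controls, and the early and late stage ranges overlapped. The log2 fold change was 0.38 (SE 0.09) in early stage lines with an FDR of 0.0123 by edgeR's quasi-likelihood test, and 0.26 (SE 0.10) in late stage lines with an FDR of 0.0719. DESeq2 gave an adjusted p of 0.00285 for the early stage difference.

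MAFG (gene 4097, chr17:79876146-79885611, minus strand), a small MAF partner of NRF2, was lower in all DasR lines than in either control without passing the threshold. It was at 192 and 182 CPM in the drug naive and DMSO lines, at 148, 171 and 171 CPM in the 10, 15 and 25 nM lines, and at 158 and 135 CPM in the 50 and 200 nM lines. Its log2 fold change was -0.21 (SE 0.11) in early stage lines, with an FDR of 0.158 by edgeR, and -0.37 (SE 0.12) in late stage lines, with an FDR of 0.0522. The early and late stage lines overlapped in CPM. Exons of MAFG share 105 bases with SIRT7 on the same strand and 224 bases with a noncoding gene on the opposite strand.

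NQO1 (gene 1728, chr16:69740899-69760571, minus strand), which reduces quinones with NADH or NADPH and is a widely used readout of NRF2, fell in early stage lines and stood above both controls in late stage lines, where the difference did not pass the test. It was at 57.1 CPM in the drug naive and 57.2 CPM in the DMSO line, at 35.8, 29.7 and 40.0 CPM in the 10, 15 and 25 nM lines, and at 61.6 and 69.2 CPM in the 50 and 200 nM lines. The 3 groups did not overlap, with early stage lines lowest and late stage lines highest. These values rest on 803 to 1493 counts per line. Against control, early stage lines were 1.64-fold lower, with a log2 fold change of -0.72 (SE 0.13) and an FDR of 0.00490 by edgeR's quasi-likelihood test. That FDR lies just inside the threshold: leaving out any single line raised it above 0.005, to between 0.00619 without the 200 nM line and 0.0354 without the drug naive line. It was 0.00520 with RLE scaling, 0.00514 with library totals alone, 0.00669 with a filter of 1 CPM and 0.00644 with only the groups compared in the fit. Against control, late stage lines had a log2 fold change of 0.17 (SE 0.15), with a 95% interval from -0.17 to 0.51 and an FDR of 0.395 by edgeR. This log2 fold change lay between 0.10 and 0.24 with single lines left out. Exons of NQO1 overlap those of the noncoding gene ENSG00000261602 on the opposite strand over 575 bases.

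The 3 of the 10 genes that serve glutathione synthesis and recycling, GCLC, GCLM and GSR, were not called in any comparison. GCLC (gene 2729, chr6:53362139-53481768, minus strand), the catalytic subunit of glutamate-cysteine ligase, the first step of glutathione synthesis, was at 34.9 and 35.9 CPM in the drug naive and DMSO lines. It was at 31.5, 31.0 and 27.8 CPM in the 10, 15 and 25 nM lines and at 25.8 and 22.9 CPM in the 50 and 200 nM lines. The 3 groups did not overlap, with the controls highest and the late stage lines lowest. The log2 fold change was -0.25 (SE 0.11, FDR 0.101 by edgeR) in early and -0.56 (SE 0.12, FDR 0.0135 by edgeR) in late stage lines. DESeq2 gave an adjusted p of 0.00345 for the late stage difference. Exons of GCLC share 529 bases with a noncoding gene on the same strand and 305 bases with GCLC-AS1 on the opposite strand. These exons cover 8618 annotated bases against an authors' gene length of 3717 bases, and how many of the shared bases were counted was not determined.

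GCLM (gene 2730, chr1:94350755-94375012, minus strand), the modifier subunit of the same ligase, had the largest ratio of the 10 genes between the controls and between the late stage lines. It was at 118 CPM in the drug naive but 80.5 CPM in the DMSO line, at 81.6, 85.4 and 83.5 CPM in the 10, 15 and 25 nM lines, and at 83.1 CPM in the 50 nM but 53.1 CPM in the 200 nM line. The 3 early stage lines, the 50 nM line and the DMSO line stood within a narrow range, with the drug naive line above it and the 200 nM line below it. The log2 fold change was -0.27 (SE 0.22, FDR 0.356 by edgeR) in early stage lines, and 0.05 with the drug naive line left out. The late stage value was -0.57 (SE 0.25, FDR 0.117 by edgeR), and it was -0.25 without the drug naive, -0.86 without the DMSO, -0.94 without the 50 nM and -0.27 without the 200 nM line.

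GSR (gene 2936, chr8:30535583-30585363, minus strand), which regenerates reduced glutathione with NADPH, was at 171 and 141 CPM in the drug naive and DMSO lines. The 10, 15 and 25 nM lines had 138, 138 and 148 CPM, and the 50 and 200 nM lines had 162 and 189 CPM. Both late stage lines were above all early stage lines, and each stage overlapped with the controls. The log2 fold change was -0.16 (SE 0.12, FDR 0.307 by edgeR) in early stage lines and 0.00 without the drug naive line, and it was 0.14 (SE 0.13, FDR 0.430 by edgeR) in late stage lines and -0.03 without the DMSO, 0.31 without the drug naive, 0.24 without the 50 nM and 0.04 without the 200 nM line.

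In the thioredoxin and peroxiredoxin arm, PRDX1 rose in early stage and SRXN1 in late stage lines. PRDX1 (gene 5052, chr1:45976586-46008404, minus strand), an abundant peroxidase that breaks down hydrogen peroxide, was at 253 and 302 CPM in the drug naive and DMSO lines. It was at 392, 429 and 402 CPM in the 10, 15 and 25 nM lines and at 375 and 338 CPM in the 50 and 200 nM lines. The groups did not overlap: early stage lines were highest, late stage lines intermediate and controls lowest. The rise in early stage lines was 1.46-fold, with a log2 fold change of 0.54 (SE 0.10) and an FDR of 0.00482 by edgeR's quasi-likelihood test. Without one of the lines compared this FDR lay above 0.005, at 0.0417 without the drug naive, 0.0129 without the DMSO, 0.0110 without the 10 nM, 0.0163 without the 15 nM and 0.0195 without the 25 nM line, and it was 0.00563 with library totals alone. In late stage lines the log2 fold change was 0.34 (SE 0.11) with an FDR of 0.0453 by edgeR. Exons of PRDX1 overlap those of MMACHC on the opposite strand over 501 bases.

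SRXN1 (gene 140809, chr20:627259-633844, minus strand), sulfiredoxin, which restores peroxiredoxins that have been oxidized too far, was lowest in the controls. It was at 35.5 and 32.8 CPM in the drug naive and DMSO lines, at 48.5, 50.1 and 52.5 CPM in the 10, 15 and 25 nM lines, and at 55.3 and 64.3 CPM in the 50 and 200 nM lines. In these libraries each stage lay above the one before it with no overlap, from 34.1 ± 1.90 CPM (SD, n = 2) in control through 50.4 ± 1.99 CPM (SD, n = 3) to 59.8 ± 6.38 CPM (SD, n = 2). SRXN1 rose 1.73-fold in the late stage, with a log2 fold change of 0.79 (SE 0.11) and an FDR of 0.00321 by edgeR's quasi-likelihood test. This FDR was between 0.00616 without the 50 nM line and 0.0203 without the DMSO line when single lines were left out, and above 0.005 each time. In early stage lines the log2 fold change was 0.54 (SE 0.10) and the FDR of 0.00537 by edgeR missed the threshold, although it was 0.00473 without the 50 nM and 0.00461 without the 200 nM line. Exons of SRXN1 share 2292 bases on the same strand with another annotated protein coding gene, ENSG00000270299, and how such reads were assigned is not given in the sources used here.

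TXNRD1 (gene 7296, chr12:104609557-104744085, plus strand), the cytosolic thioredoxin reductase, was at 314 and 248 CPM in the drug naive and DMSO lines. The 10, 15 and 25 nM lines had 261, 248 and 268 CPM, and the 50 and 200 nM lines had 305 and 364 CPM. The late stage lines were above the early stage lines, and the spread between the controls covered much of the range. The log2 fold change was -0.14 (SE 0.13, FDR 0.427 by edgeR) in early stage lines and 0.06 without the drug naive line, and 0.22 (SE 0.15, FDR 0.275 by edgeR) in late stage lines. This late stage value was 0.42 without the drug naive, 0.02 without the DMSO, 0.34 without the 50 nM and 0.10 without the 200 nM line.

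**Figure D2:**
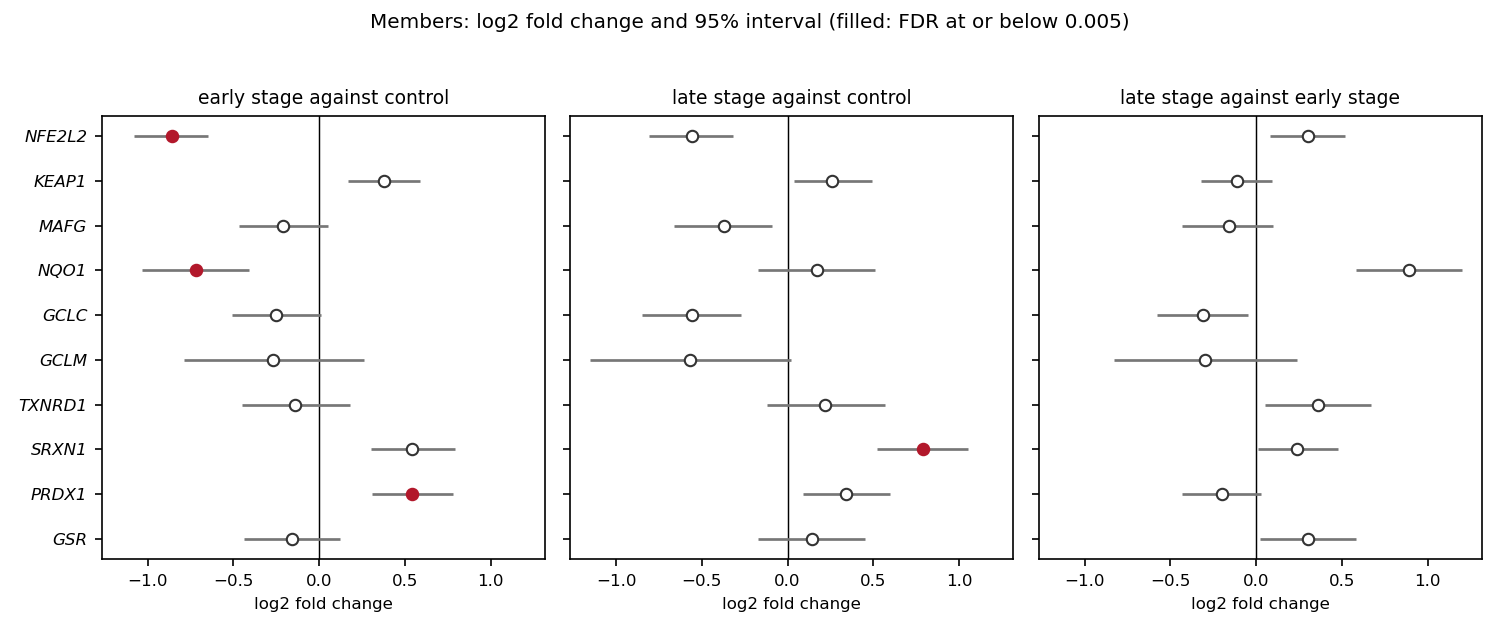
Log2 fold change (horizontal axis) with its 95% interval for the 10 genes (vertical axis) in 3 comparisons, with filled points at an FDR of 0.005 or less by edgeR's quasi-likelihood test. NFE2L2, NQO1 and PRDX1 are filled in early stage against control, SRXN1 in late stage against control, and none in late against early stage, where NQO1 has the largest value of the 10 genes.

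Between late and early stage lines none of the 10 genes was called, and neither was any of the 10452 genes, by edgeR's quasi-likelihood test. An unadjusted p under 0.05 was reached by 3450 genes, and 1135 were called by DESeq2. Of the 10 genes, 6 had an unadjusted p under 0.05. NQO1 had the largest difference, with late stage lines 1.85-fold higher, a log2 fold change of 0.89 (SE 0.13), a 95% interval from 0.58 to 1.20 and an FDR of 0.0167 by edgeR. DESeq2 gave NQO1 an adjusted p of 1.99e-06, and edgeR without a filter on low counts an FDR of 0.00417. At an FDR of 0.05, 12.7% of all genes passed, 6.60% as higher, and NQO1 was the only one of the 10 to do so. Without the 200 nM line its FDR was 0.0893. Higher values in late stage lines were also measured for TXNRD1, GSR, NFE2L2 and SRXN1, with log2 fold changes of 0.36 (SE 0.13), 0.30 (SE 0.12), 0.30 (SE 0.09) and 0.24 (SE 0.10) and edgeR's FDR at 0.112, 0.129, 0.0757 and 0.144. GCLC was lower, with a log2 fold change of -0.31 (SE 0.11) and an FDR of 0.108 by edgeR.

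Separation of groups by CPM range was common among all genes. Early stage lines lay wholly above or below the controls for 7 of the 10 genes, 3 above and 4 below, against 69.8% of all genes, 35.9% above and 34.0% below. Late stage lines did so for 4 above and 3 below, against 67.7%, 34.3% above and 33.4% below. Late stage lines were above the early stage lines for 5 and below them for 2 of the 10 genes, against 53.3%, 26.8% above and 26.4% below. The lack of overlap given for single genes above is thus common in these 7 libraries.

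The controls were not alike for all members. The DMSO line had 0.684 times the GCLM and 0.790 times the TXNRD1 CPM of the drug naive line, and these were the only 2 of the 10 genes that differed by more than 1.25-fold, a fold chosen after the values were seen. Of all genes, 20.4% differed by that much between the controls, 12.8% as higher and 7.61% as lower in DMSO. For GCLM only 2.92% of genes had a lower ratio of DMSO to drug naive. Among the 75 further tested genes of the response, 7 were higher and 11 lower in the DMSO line by that fold, with PIR lowest at a ratio of 0.601 and GLRX2 highest at 1.79, named after their values were seen. With 1 library per line there is no test of these ratios. None of the 10 genes differed by 1.25-fold between the 10 and 15 nM lines or between the 10 and 25 nM lines, against 21.1% and 12.6% of all genes, and between the 50 and 200 nM lines GCLM alone did, with a ratio of 0.639, against 25.7% of all genes in either direction and 13.7% as lower at 200 nM.

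Per kilobase of the authors' gene length, PRDX1 was the most abundant of the 10 genes, at 225 ± 28.3 RPKM (CPM per kilobase) in control lines (SD, n = 2). GSR at 69.0 ± 9.41 RPKM and TXNRD1 at 66.4 ± 11.0 RPKM followed and did not differ beyond their spread. NFE2L2 came next at 54.4 ± 4.71 RPKM and did not differ from TXNRD1 beyond their spread. It stood above MAFG at 35.8 ± 1.32 RPKM and GCLM at 32.2 ± 8.57 RPKM, and the last pair did not differ beyond its spread. KEAP1 at 23.9 ± 0.651 RPKM and NQO1 at 22.1 ± 0.0461 RPKM stood above SRXN1 at 13.3 ± 0.737 RPKM and GCLC at 9.53 ± 0.191 RPKM (SD, n = 2 throughout). In early stage lines the RPKM of NFE2L2, at 30.2 ± 1.68, was within the spread of KEAP1 at 31.4 ± 1.96 and MAFG at 31.3 ± 2.61 (SD, n = 3). SRXN1, at 19.6 ± 0.774 RPKM, stood above NQO1, at 13.6 ± 2.00 RPKM, in early stage lines, the reverse of their order in control lines. GCLC was the lowest of the 10 genes per kilobase in each group.

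Around these 10 genes, 99 further genes of the response were listed by role, and 75 of them were tested. In early stage lines 9 rose and 15 fell, a share of 32.0% called against 18.0% of all genes, with a median log2 fold change of -0.19. These counts hold GSTM3 and AKR1C3, which reached the filter only through the lines in which they were high, so nothing is read from the share. In late stage lines 1 rose and 5 fell, with a median of -0.04, a share of 8% against 7.98%. Without the drug naive line 1 was called in early stage lines and none in late stage lines, while calls among all genes came to 187 and 30. Without the DMSO line 3 and 2 were called, and 461 and 95 among all genes. Counts for single roles are to be read against 7.92% of all genes called higher and 10.1% called lower in early stage lines, and 3.42% and 4.56% in late stage lines. Whether the list as a whole stands apart from other genes was not tested.

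**Figure D3:**
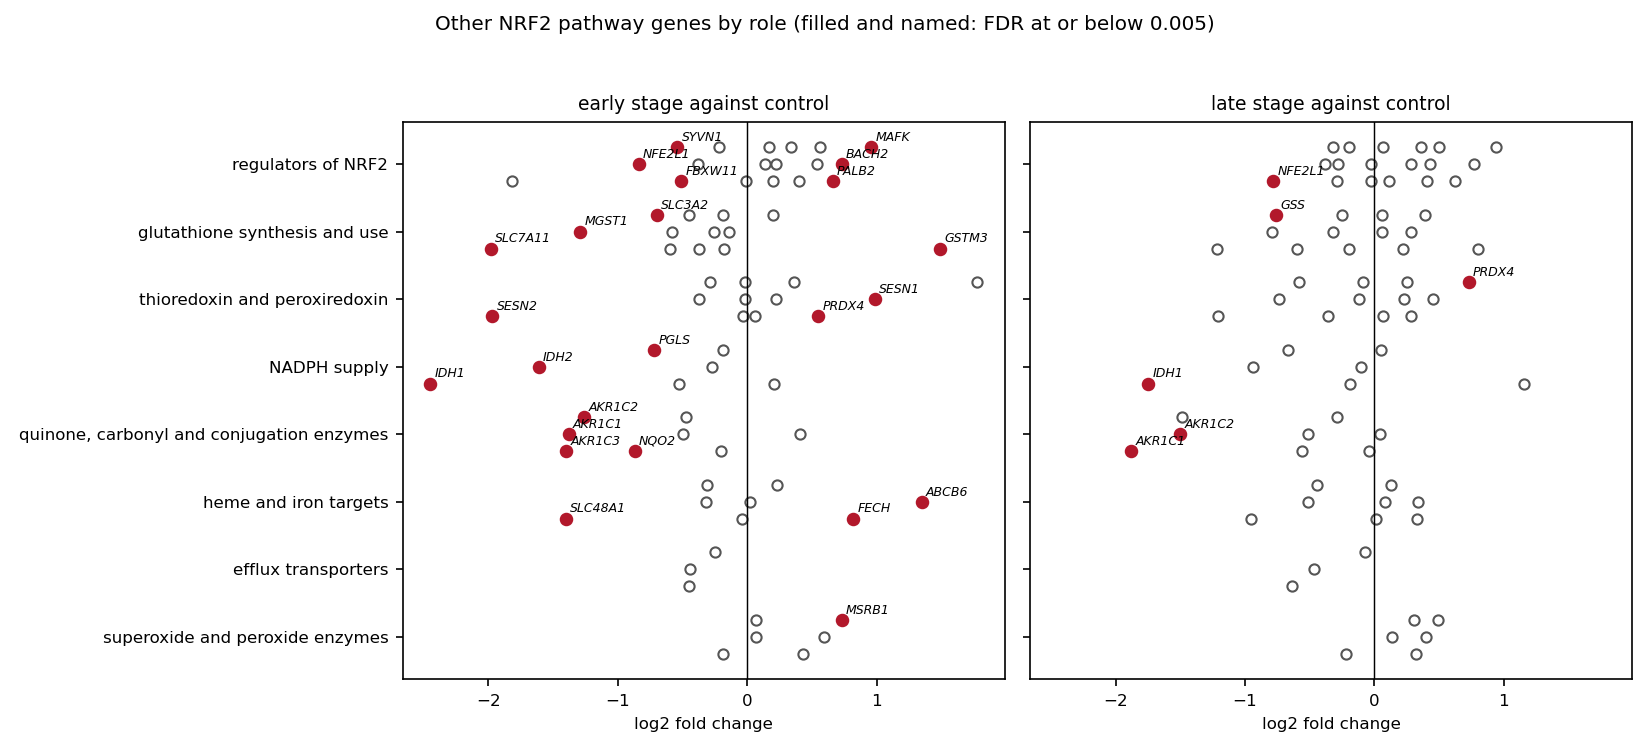
Log2 fold change (horizontal axis) of 75 further genes of the NRF2 response by role (vertical axis) in early and late stage lines against control, with 1 point per gene. Filled, named points passed an FDR of 0.005 by edgeR's quasi-likelihood test, 24 in early and 6 in late stage lines, and IDH1 lies farthest to the left in early stage lines.

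Among 18 other regulators of NRF2, 3 rose and 3 fell in early stage lines. MAFK, another small MAF partner, went from 11.2 ± 0.281 CPM in control (SD, n = 2) to 22.1 ± 1.95 CPM in early stage lines (SD, n = 3), with a log2 fold change of 0.96 (SE 0.13). MAFF, also a small MAF and named after its values were seen, had a log2 fold change of -1.82 (SE 0.42) in early stage lines. Its FDR of 0.0108 by edgeR missed the threshold, and it reached the filter only through the drug naive and 200 nM lines. BACH2, a repressor that competes for the same elements, had a log2 fold change of 0.73 (SE 0.13), and PALB2, a KEAP1-binding DNA repair protein, 0.66 (SE 0.11). NFE2L1, the related factor NRF1 and the most abundant of these regulators by mean CPM over the 7 lines, fell to 181 ± 6.41 CPM (SD, n = 3) in early stage lines, against 321 ± 6.20 CPM in control (SD, n = 2), with a log2 fold change of -0.84 (SE 0.10, FDR 0.000951 by edgeR). It also fell in late stage lines, by 0.78 on the log2 scale (SE 0.11, FDR 0.00315 by edgeR). SYVN1 and FBXW11, parts of ubiquitin ligases that act on NRF2, fell by 0.54 (SE 0.08) and 0.51 (SE 0.08) on the log2 scale in early stage lines. BACH1, the best known repressor of NRF2 targets, was at 153 CPM in the drug naive line, 120 CPM in the DMSO line and 105 to 120 CPM in the DasR lines, and its log2 fold change of -0.22 in early stage lines had an FDR of 0.178 by edgeR.

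In glutathione synthesis and use, 1 of 13 genes rose and 3 fell in early stage lines. SLC7A11, which imports the cystine that glutathione is built from, was at 384 and 366 CPM in the drug naive and DMSO lines. It was at 137, 62.1 and 89.5 CPM in the 10, 15 and 25 nM lines and at 166 and 161 CPM in the 50 and 200 nM lines. All DasR lines were far below both controls, and the early stage lines were lowest. The log2 fold change was -1.98 (SE 0.28, FDR 0.00202 by edgeR) in early stage lines, a 3.93-fold fall, and -1.22 (SE 0.32, FDR 0.0243 by edgeR) in late stage lines. SLC3A2, the partner chain of this transporter, fell by 0.70 (SE 0.11) on the log2 scale in early stage lines, and MGST1, a membrane-bound glutathione transferase, by 1.29 (SE 0.21). GSTM3, a cytosolic glutathione transferase, rose with a log2 fold change of 1.49 (SE 0.26), but it reached the filter only through DasR lines and shares sequence with its family, so its count is uncertain. In late stage lines GSS, the second enzyme of glutathione synthesis, fell to 64.8 ± 3.12 CPM (SD, n = 2) against 108 ± 11.7 CPM in control (SD, n = 2), with a log2 fold change of -0.76 (SE 0.12, FDR 0.00471 by edgeR). GSTP1 was the most abundant of these genes by mean CPM over the 7 lines. In control it had 359 ± 24.6 CPM (SD, n = 2), within the spread of SLC7A11 at 375 ± 12.4 CPM (SD, n = 2). The log2 fold change of GSTP1 was -0.26 (SE 0.08, FDR 0.0291 by edgeR) in early stage lines.

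Among 12 other thioredoxin and peroxiredoxin genes, 2 rose and 1 fell in early stage lines. SESN2, a stress-induced sestrin, fell to 68.2 ± 2.17 CPM (SD, n = 3) against 266 ± 45.9 CPM in control (SD, n = 2), with a log2 fold change of -1.97 (SE 0.20), while SESN1 of the same family rose, with a log2 fold change of 0.99 (SE 0.14). PRDX4, the peroxiredoxin of the endoplasmic reticulum, rose from 47.4 ± 2.62 CPM in control (SD, n = 2) to 70.3 ± 2.70 CPM in early (SD, n = 3) and 79.8 ± 6.38 CPM in late stage lines (SD, n = 2), with log2 fold changes of 0.55 (SE 0.09, FDR 0.00270 by edgeR) and 0.73 (SE 0.09, FDR 0.00223 by edgeR). TXN, thioredoxin itself, had log2 fold changes of 0.22 and 0.28, with FDR at 0.0757 and 0.0603 by edgeR. TXNIP, the thioredoxin-binding inhibitor, was the most abundant gene of the list by mean CPM over the 7 lines. It stood at 883 and 696 CPM in the drug naive and DMSO lines. It was at 718, 608 and 530 CPM in the 10, 15 and 25 nM lines and at 526 and 434 CPM in the 50 and 200 nM lines. Its early stage range overlapped with the controls. In late stage lines the log2 fold change was -0.74 (SE 0.19, FDR 0.0240 by edgeR).

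Of 7 genes listed under NADPH supply, 3 fell in early stage lines, 1 fell in late stage lines and none rose in either. IDH1, the cytosolic NADP-dependent isocitrate dehydrogenase, was at 358 and 319 CPM in the drug naive and DMSO lines, at 66.3, 58.9 and 62.2 CPM in the 10, 15 and 25 nM lines, and at 90.8 and 113 CPM in the 50 and 200 nM lines. Early stage lines were 5.48-fold and late stage lines 3.37-fold below control, with FDR at 7.76e-05 and 0.000612 by edgeR's quasi-likelihood test. Its mitochondrial counterpart IDH2 fell by 1.61 (SE 0.22) on the log2 scale in early stage lines, and PGLS, of the pentose phosphate pathway, by 0.72 (SE 0.13). The malic enzyme ME1 had a log2 fold change of 1.16 (SE 0.20) in late stage lines, with an FDR of 0.00626 by edgeR. PGD, the most abundant of these genes by mean CPM over the 7 lines, had log2 fold changes of -0.27 and -0.19, with FDR at 0.0630 and 0.227 by edgeR.

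Of 8 tested enzymes that act on quinones and carbonyls or in conjugation, 4 fell in early stage lines and none rose. The aldo-keto reductases AKR1C1, AKR1C2 and AKR1C3 had log2 fold changes of -1.38 (SE 0.14), -1.26 (SE 0.16) and -1.40 (SE 0.25). AKR1C1 and AKR1C2 also fell in late stage lines, by 1.88 (SE 0.16) and 1.50 (SE 0.18) on the log2 scale. AKR1C1 and AKR1C2 are near-identical in sequence and AKR1C3 is a close relative, so that their counts are uncertain one by one, and AKR1C3 reached the filter only through the controls. NQO2, the second quinone reductase and the most abundant of this list by mean CPM over the 7 lines, was at 134 and 124 CPM in the drug naive and DMSO lines, at 65.6, 74.3 and 74.7 CPM in the 10, 15 and 25 nM lines, and at 92.0 and 122 CPM in the 50 and 200 nM lines. NQO2 fell in the early stage by 0.87 on the log2 scale (SE 0.13, FDR 0.00239 by edgeR). In the early stage lines AKR1A1 of this list stood above it, at 91.1 ± 5.20 CPM (SD, n = 3).

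Among 8 tested heme and iron genes, ABCB6 and FECH rose and SLC48A1 fell in early stage lines. ABCB6, a porphyrin transporter, was at 42.6 ± 2.48 CPM in control (SD, n = 2) and 110 ± 17.3 CPM in early stage lines (SD, n = 3), and FECH, which inserts iron to make heme, at 87.9 ± 1.34 CPM and 157 ± 12.5 CPM. SLC48A1, a heme transporter, fell by 1.40 (SE 0.16) on the log2 scale. HMOX1, heme oxygenase-1, usually a strongly inducible NRF2 target, was at the floor of detection, with 5 counts in the drug naive line, 1 in the 10 nM line and 0 in the other 5 lines. A count of 0 allows up to 3 counts, or 0.108 to 0.150 CPM over the 7 libraries, counting error only. FTL, the ferritin light chain and the most abundant of these genes by mean CPM over the 7 lines, was at 2608 and 2132 CPM in the drug naive and DMSO lines, with no call.

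The 3 tested efflux transporters were not called, and the most abundant by mean CPM over the 7 lines, ABCC1, had a log2 fold change of -0.44 (SE 0.10, FDR 0.0126 by edgeR) in early stage lines. Of 6 tested genes on the superoxide and peroxide list, MSRB1, which repairs oxidized methionine, rose in the early stage. Its log2 fold change was 0.73 (SE 0.13, FDR 0.00449 by edgeR). SOD1, the most abundant of that list by mean CPM over the 7 lines, was at 173 ± 32.0 CPM in control (SD, n = 2) and 262 ± 24.4 CPM in early stage lines (SD, n = 3), with an FDR of 0.0110 by edgeR that missed the threshold.

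**Figure D4:**
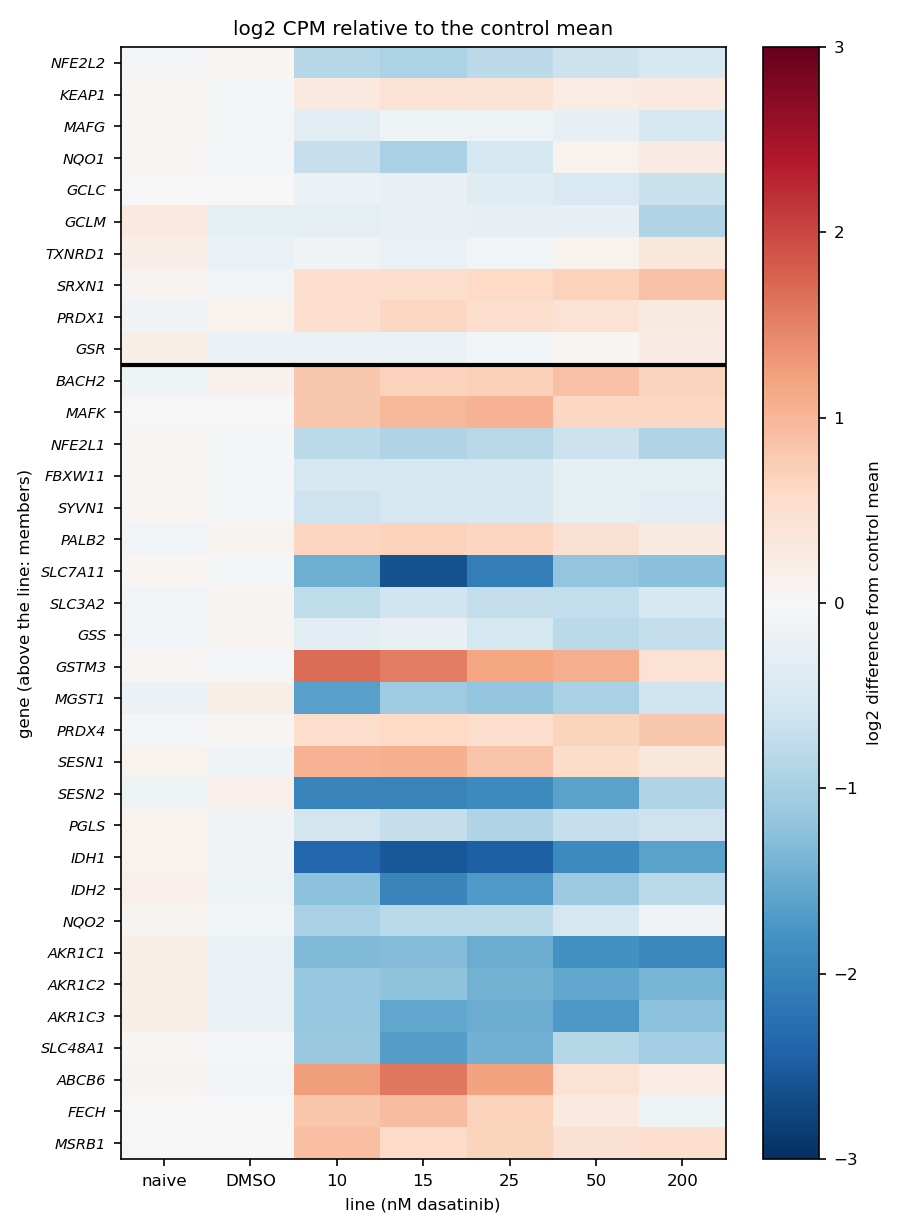
Difference in log2 CPM from the mean of the 2 controls (color) for the 10 genes, above the line, and for the 25 further genes called in early or late stage lines, below it, in each of the 7 lines (horizontal axis). SLC7A11, SESN2 and IDH1 are among the lowest in early stage lines, and NQO1 lies below both controls in all early stage and above both in all late stage lines.

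Several markers of erythroid cells rose in the early stage lines, among them globins. Summed over 16 erythroid markers, CPM was 4386 and 3987 in the drug naive and DMSO lines, 12761, 14335 and 11184 in the 10, 15 and 25 nM lines, and 7244 and 5168 in the 50 and 200 nM lines. Of the 15 erythroid markers tested, 5 rose, against 7.92% of all genes, and none fell in early stage lines, with a median log2 fold change of 1.17. The 5 were EPOR, TFRC, HBG1, HBA1 and HBA2, and HBA1 and HBA2 are near-identical in sequence, so their counts are uncertain one by one. The erythroid factors GATA1 and NFE2 had log2 fold changes of -0.18 (SE 0.13) and 0.17 (SE 0.09), with FDR at 0.283 and 0.172 by edgeR. The most abundant by mean CPM over the 7 lines, HBG2, missed the threshold with an FDR of 0.00658 by edgeR, and was at 1062 ± 207 CPM in control (SD, n = 2) and 2412 ± 572 CPM in early stage lines (SD, n = 3). HBB was the only marker of that list below the filter. The part of this shift in the values of the 10 genes, or of ABCB6 and FECH, which also serve heme synthesis in red cell precursors, was not tested. Markers of other cell types summed to between 8.87 and 34.2 CPM for 8 lymphoid markers (led by CD3D), to at most 109 CPM for 6 monocyte and macrophage markers (led by LYZ) and to between 6.11 and 19.8 CPM for 6 fibroblast and stromal markers (led by COL1A1). LYZ varied between lines, with 101 CPM in the 10 nM, 24.6 CPM in the 15 nM and 93.2 and 98.9 CPM in the 50 and 200 nM lines. CD3D was at 16.3 and 8.15 CPM in the drug naive and DMSO lines, at 3.60, 2.73 and 8.47 CPM in the 10, 15 and 25 nM lines and at 22.6 and 29.6 CPM in the 50 and 200 nM lines, above all other lines. Its log2 fold change between late and early stage was 2.41 (SE 0.50, FDR 0.0270 by edgeR), and its part in the values of the 10 genes was not tested. CD3D would not have reached the filter without the late stage lines, in which it was high, so nothing is read from this FDR. Under 1 CPM in all 7 lines were 4 of the lymphoid, 3 of the monocyte and macrophage and 2 of the fibroblast and stromal markers. In bulk RNA fewer cells with a transcript and less of it per cell cannot be told apart.

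The genes most like NFE2L2 and NQO1 over the 7 lines were found by the root mean square difference of centered log2 CPM, as a description. For NFE2L2 they were MARS with 0.043, EEF1E1 with 0.049 and TMTC4 with 0.054, and 33 genes lay within 0.1. For NQO1 they were YES1 with 0.091, TAOK3 and ELF1 with 0.101, and only YES1 lay within 0.1. TXNRD1 and GSR were each other's nearest gene, at 0.054, and FTH1 was nearest to GCLM, at 0.089, both named after their values were seen. As the log2 levels share 7 libraries and the same 2 controls, no test was made.

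Promoters were searched for the core of the antioxidant response element, TGACNNNGC on either strand, in RefSeq windows of GRCh38.p14 from 250 bases before to 50 bases after each start. Of the 10 genes, 8 were matched in the table and 3 held the letters in at least one window, GCLM, TXNRD1 and KEAP1, while 16.1% of the 27305 genes did so in any window. PRDX1 and GSR were not among the genes matched. The matches that lie upstream of a start are shown because they hold the letters that NRF2 is known to bind, with the 9 letters of the core in capitals and 8 bases on either side.
GCLM, chr1:93909448-93909472, plus strand: gaagacaaTGACTAAGCagaaatcg
TXNRD1, chr12:104215672-104215696, plus strand: acgggctaTGACTTCGCtgttgtca
TXNRD1, second start, chr12:104286922-104286946, minus strand: agtcagaaTGACAAAGCagaaatcc
KEAP1, chr19:10502809-10502833, minus strand: ttttattgTGACACGGCgggcgccc
KEAP1, chr19:10502786-10502810, plus strand: ggtcaccaTGACTAAGCagagccgg
The GCLM match and the second KEAP1 match share the core TGACTAAGC. The match ended 26 bases before the start in GCLM and 91 and 94 bases before the starts in TXNRD1, and 46 and 23 bases before it in KEAP1. No comparison of these 3 genes was called by edgeR at an FDR of 0.005, and the 4 called genes were not among those with a match in this window, with PRDX1 not searched. Sequence more than 250 bases before a start was not searched, so a gene without a match here can still hold the element, and nothing is read from this. A further TXNRD1 match that spans a start is not shown. A match is a run of letters and does not show binding.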

How the data were processed

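Per the extract protocol and the study's methods, the authors depleted ribosomal RNA, while the molecule label reads polyA RNA. They made libraries with a directional kit, aligned reads to hg19 with STAR and counted reads per gene with featureCounts. The deposited counts are not normalized, and 23738 of the 25702 IDs had a symbol. Gene lengths and symbols came from a deposited table. It and a second one also hold the authors' fold changes and p-values, not used here. Genes at 10 CPM in at least 2 libraries were kept, the same 10452 as in those tables. After TMM scaling, edgeR 4.0.16 in R 4.3.3 fitted the 3 groups over all 7 libraries (glmQLFit) and compared them (glmQLFTest), with Benjamini-Hochberg adjustment and a threshold of 0.005. The biological coefficient of variation was 0.161. Chi-square values between 2 lines of a group were 14.5 to 45.1 per degree of freedom, which is beyond sampling noise. As these are different lines and not repeats of one line, nothing more is read from this. RPKM used the deposited lengths. On simulated counts for early stage against control (10452 genes, 200 changed by 2 on the log2 scale), 200 changed and 0 unchanged genes were called. The simulation gave every gene the same dispersion and a change larger than any measured for the 10 genes. It checks the fitting steps only and does not show how often changes of the measured size are found or missed. DESeq2 1.42.0, limma 3.58.1 (voom), scaling, filters, the libraries fitted and each line left out were alternatives. Positions came from a GRCh37 annotation. The p-values set the difference between groups against the spread between these lines. As the stages were set from the clustering of the same libraries, lines of a stage were grouped for being alike. FDR values can be too small for that reason, by an amount that was not tested.

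The 10 genes and all lists were chosen with earlier results of these data known. Named from each list were up to 3 called genes with the largest change in early stage lines, up to 2 such genes in late stage lines, the most abundant by mean CPM over the 7 lines, and always HMOX1, SLC7A11, BACH1 and TXN, and others are named as called or as chosen after their values were seen. One listed item is not reported here and was left out of the lists.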

Additional observations from a re-analysis of the deposited data

Results flagged for a closer look

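NQO1 and GGCT, which breaks down gamma-glutamyl dipeptides of the glutathione cycle, had all early stage lines below and all late stage lines above both controls, as had 2.04% of all genes tested. For NQO1 the difference between late and early stage was 0.89 on the log2 scale with an FDR of 0.0167 by edgeR's quasi-likelihood test. For GGCT it was 0.47 with an FDR of 0.0296, from 77.2 ± 5.77 CPM in control (SD, n = 2), 68.2 ± 3.40 CPM in early (SD, n = 3) and 95.3 ± 12.3 CPM in late stage lines (SD, n = 2). Neither passed 0.005, and both genes were picked for late stage lines lying above early stage lines.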

How the results depend on the processing

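No paired analysis was possible because the labels carry no replicate numbers and each line has 1 library. Replacing the test by DESeq2 raised the members called to 5 in early and 3 in late stage lines and 1 between stages, the listed pathway genes to 20 in late stage lines and 10 between stages, and all genes to 3548, 2503 and 1135. At an FDR of 0.05 these were 5, 4 and 1 members, 37, 31 and 11 pathway genes, and 4865, 3542 and 1328 genes. Without a filter on low counts, 10 pathway genes and 1287 genes were called in late stage lines, and 1 member, 1 pathway gene and 295 genes between stages. With only the groups compared in the fit, 0 members, 3 pathway genes and 257 genes were called in late stage lines. With single lines left out, calls lay between 0 and 3 members, 1 and 25 pathway genes and 187 and 2074 genes in early stage lines, between 0 and 0 members, 0 and 7 pathway genes and 30 and 601 genes in late stage lines, and between 0 and 0 members, 0 and 2 pathway genes and 0 and 200 genes between stages. The median of the members lay between -0.31 and 0.03 in early and between -0.00 and 0.24 in late stage lines. In early stage lines the log2 fold change turned without the drug naive line for GCLM (range -0.56 to 0.05 with single lines left out), TXNRD1 (-0.34 to 0.06) and GSR (-0.34 to 0.00), and in late stage lines it turned without the DMSO line for GSR (-0.03 to 0.31). The cause was not tested. A group left with 1 line was assumed to vary like the others. No other member changed direction in any alternative. limma voom called the same number of members as edgeR in each comparison, and no scaling moved the median of all genes by 0.1.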
